A study of Mus musculus with 12 samples.

Results

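The 37 genes described here encode the machinery by which liver burns fatty acids and makes ketone bodies, together with regulators and targets of the nuclear receptor PPARα. They were chosen by name, with earlier results of these data known. All 37 were among the 23420 genes of each of the 12 count tables and among the 13693 genes with enough counts to be tested. Whole liver of C57BL/6 mice was sequenced as 12 libraries of total RNA in 6 groups of 2 libraries. Every group carries floxed alleles of Gdown1, the RNA polymerase II binding protein that Polr2m encodes. In KO livers Alb-Cre, in which the albumin promoter drives Cre recombinase, deletes Gdown1 in hepatocytes, and FF livers carry the floxed alleles alone; both were taken at 7 weeks. DKO livers carry Alb-Cre and a p53 null mutation, and p53KO livers carry the p53 null mutation with no Cre; both were taken at 8 weeks. DKO TAM livers carry the p53 null mutation and Alb-CreERT2, a Cre that tamoxifen activates. The p53KO TAM livers are p53-null with no Cre in their given genotype. Both groups were taken 24 hours after tamoxifen, and their titles give no age. Cre goes with the deletion in all 3 comparisons, so effects of Cre and of Gdown1 loss cannot be told apart. The labels do not say what separates the 2 libraries of a group, and p-values measure the spread between libraries only.

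In liver, long-chain fatty acids are bound in the cytosol, activated to acyl-CoA and carried into mitochondria as acylcarnitines, where β-oxidation shortens them and electron transfer flavoprotein hands the electrons to the respiratory chain. Very long chains are shortened first in peroxisomes, and the cytochromes of the Cyp4a family start ω-oxidation at the other end of the chain. In fasting, fatty acids and the receptor PPARα raise many of these genes together, and the acetyl-CoA formed is turned into ketone bodies for export. Gdown1 is known as a factor that RNA polymerase II can carry and that competes with the initiation factor TFIIF.

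Promoter sequence is shown for 3 members on which the results below turn: Hadhb and Acot1, which were higher in all 3 comparisons of deleted with control livers, and Fabp1, which fell in 2 of them. RefSeq promoters of the GRCm38.p6 assembly were matched to 30 of the 37 members. Each line gives the 250 bases before the start site, 5′ to 3′ on the gene's strand, with capitals for a motif match. The Hadhb stretch is chr5:30155003-30155252 on the plus strand and lies between the Hadhb start and that of its divergent neighbour Hadha, which are 273 bases apart. The Fabp1 stretch is chr6:71199629-71199878 and the Acot1 stretch chr12:84009252-84009501, both on the plus strand.
Hadhb: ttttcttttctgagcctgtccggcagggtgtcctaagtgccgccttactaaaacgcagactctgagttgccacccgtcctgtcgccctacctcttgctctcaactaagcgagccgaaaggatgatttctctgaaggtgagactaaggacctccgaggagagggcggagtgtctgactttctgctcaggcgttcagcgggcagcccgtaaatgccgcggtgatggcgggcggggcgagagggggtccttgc
Fabp1: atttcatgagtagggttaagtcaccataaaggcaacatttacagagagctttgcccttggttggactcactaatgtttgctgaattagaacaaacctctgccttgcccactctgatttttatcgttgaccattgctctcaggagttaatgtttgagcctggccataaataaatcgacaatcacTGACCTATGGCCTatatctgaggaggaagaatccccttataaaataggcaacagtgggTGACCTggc
Acot1: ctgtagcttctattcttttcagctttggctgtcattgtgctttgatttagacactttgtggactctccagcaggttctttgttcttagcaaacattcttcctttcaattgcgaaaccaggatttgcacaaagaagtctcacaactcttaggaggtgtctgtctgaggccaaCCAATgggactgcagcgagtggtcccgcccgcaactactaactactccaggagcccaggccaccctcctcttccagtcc
The longer run of capitals in Fabp1 matches, on the opposite strand, AGGNCA repeated in the same direction with 1 base between the copies, the kind of site that PPARα is known to bind, 67 to 55 bases before the start. Fabp1 was the 1 member of 30 with that match on either strand, beside 0.451% of the 27025 genes with a RefSeq promoter. Motifs were counted by gene over whole promoters, which also hold the 50 bases after the start. The shorter run, 9 to 4 bases before the start, matches AGGTCA on the opposite strand, as do the first 6 letters of the longer run. The capitals in Acot1 mark CCAAT, 79 to 75 bases before the start. CCAAT on either strand was in 15 of the 30 members and in 41.1% of all genes with a promoter. AGGTCA on either strand, which can overlap the longer motif, was in 6 of the 30 members and 18.1% of all genes with a promoter. The Hadhb stretch held none of the 3 motifs searched. These are matches of letters, not measured binding.

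Library totals ran from 4939408 to 8776369 counts, so that 3 counts equal 0.342 to 0.607 CPM (counts scaled to a common library size) in a library. Polr2m, the targeted gene, stood at 64.6 and 59.3 CPM in KO livers against 100.2 and 96.7 CPM in FF livers, at 58.0 and 59.9 CPM in DKO livers against 89.0 and 103 CPM in p53KO livers, and at 65.9 and 54.5 CPM in DKO TAM livers against 75.8 and 78.6 CPM in p53KO TAM livers. The last of these 3 differences was not called (adjusted p = 0.063), and whole liver also holds cells that Alb-Cre does not reach. Over all genes, 7.88%, 25.7% and 10.1% were called lower in KO, DKO and DKO TAM livers, and 6.92%, 25.7% and 8.61% higher. Of 8 hepatocyte markers, 6 fell in KO, 8 in DKO and 6 in DKO TAM livers. Their summed level was 42094 and 48620 CPM in KO livers against 88670 and 81852 CPM in FF livers, 23529 and 27131 CPM in DKO livers against 98470 and 97966 CPM in p53KO livers, and 28989 and 27964 CPM in DKO TAM livers against 91504 and 92756 CPM in p53KO TAM livers. Fewer cells of a type and less RNA per cell cannot be told apart in such data. Of the other cell types, stellate or fibroblast markers (6 genes, all higher) summed to 1015 and 1094 CPM in DKO livers against 248 and 244 CPM in p53KO livers. Macrophage markers (5 genes, all higher) summed to 886 and 921 CPM in DKO livers against 429 and 401 CPM in p53KO livers, and the 6 cholangiocyte markers (4 higher) to 251 and 281 CPM against 53.4 and 55.9 CPM. Cell division markers (4 genes) summed to 99.8 and 103 CPM in KO livers against 47.4 and 20.4 CPM in FF livers (2 called higher), to 914 and 920 CPM in DKO livers against 38.0 and 30.4 CPM in p53KO livers (4 called higher), and to 75.0 and 111 CPM in DKO TAM livers against 30.3 and 31.3 CPM in p53KO TAM livers (4 called higher). Of the 6 endothelial markers, 3 fell in DKO TAM livers, where their sum was 429 and 392 CPM against 676 and 646 CPM in p53KO TAM livers. Markers of fat and muscle, tissues that also oxidise fatty acids, summed to at most 1.44 CPM in any library. The part of these shifts in the results below was not tested.

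Among the 37 members in FF livers, the highest levels per length were those of Fabp1, the liver fatty acid binding protein (1889 CPM per kilobase of exon), Slc27a2, a very long chain acyl-CoA synthetase that also serves uptake (792), and Crot, which makes medium-chain acylcarnitines in peroxisomes (734). The lowest were Crat, a carnitine acetyltransferase (2.29), Acot1, a cytosolic acyl-CoA thioesterase (1.90), Acot3, a peroxisomal one (0.341), and the fasting hormone Fgf21 (0.329). The levels of Acot3 and Fgf21 lay close to 3 counts in FF libraries. Crot alone gave 21.9% and 26.8% of all member counts in KO livers, against 17.2% and 15.7% in FF livers. Slc27a2 gave 8.70% and 10.002% of them in KO livers, against 13.9% and 15.1% in FF livers. As a share of all counts, with no scaling, the 37 members together took 1.42% and 1.44% in KO livers, against 1.08% and 1.12% in FF livers. They took 1.26% and 1.27% in DKO livers, against 1.25% and 1.14% in p53KO livers. They took 1.66% and 1.196% in DKO TAM livers, against 1.02% and 0.978% in p53KO TAM livers. The share was higher in both deleted libraries of each pair, but in DKO livers only narrowly above that of p53KO replicate 1, and the DKO TAM libraries lay far apart.

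Fold changes below are on a scale (TMM) that takes most genes as unchanged, and a gene was called at an adjusted p under 0.05. In KO against FF livers, 7 of the 37 members rose and 2 fell, a median log2 fold change of 0.21 beside 0.02 over all genes tested; 14.8% of all genes were called, 6.92% higher and 7.88% lower. In DKO against p53KO livers, 8 members rose and 20 fell, a median of -0.39 beside 0.01 over all genes, with 51.4% of all genes called, 25.7% higher and 25.7% lower. In DKO TAM against p53KO TAM livers, 8 rose and 1 fell, a median of 0.20 beside 0.01, with 18.7% of all genes called, 8.61% higher and 10.1% lower. Members whose libraries did not overlap numbered 18 higher and 8 lower in KO livers (28.9% and 27.4% of all genes), 10 higher and 25 lower in DKO livers (39.7% and 37.3%), and 17 higher and 6 lower in DKO TAM livers (30.2% and 29.3%). The members that rose in all 3 were Acot1, Crat and Hadhb, the β subunit of the trifunctional protein of mitochondrial β-oxidation. The share of all genes that rose in all 3 was not counted, so this list is not weighed against it.

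The split in DKO livers depends on the scale. With library totals alone the median of all genes moved to 0.77 in DKO against p53KO livers and that of the members to 0.38, and 18 members were called higher and 6 lower, beside 64.3% and 7.01% of all genes. With upper quartile scaling 9 were called higher and 14 lower (34% and 17.8% of all genes), with a median of 0.22 over all genes and -0.17 over the members. The median of the members stood below that of all genes on all 3 scales, by about the same amount. A change of scale shifts all genes about alike, so this is not a separate result on each scale. The 6 called lower on each of the 3 scales were Acaa1b, Fabp1, Slc27a2, Acsl1, Acaa1a and Eci1. In KO against FF and DKO TAM against p53KO TAM livers, library totals alone moved the median of all genes to 0.28 and 0.36, and the calls to 18 higher and 2 lower (20% and 4.02% of all genes) and to 23 higher and 1 lower (31.7% and 4.28% of all genes).

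**Figure D1:**
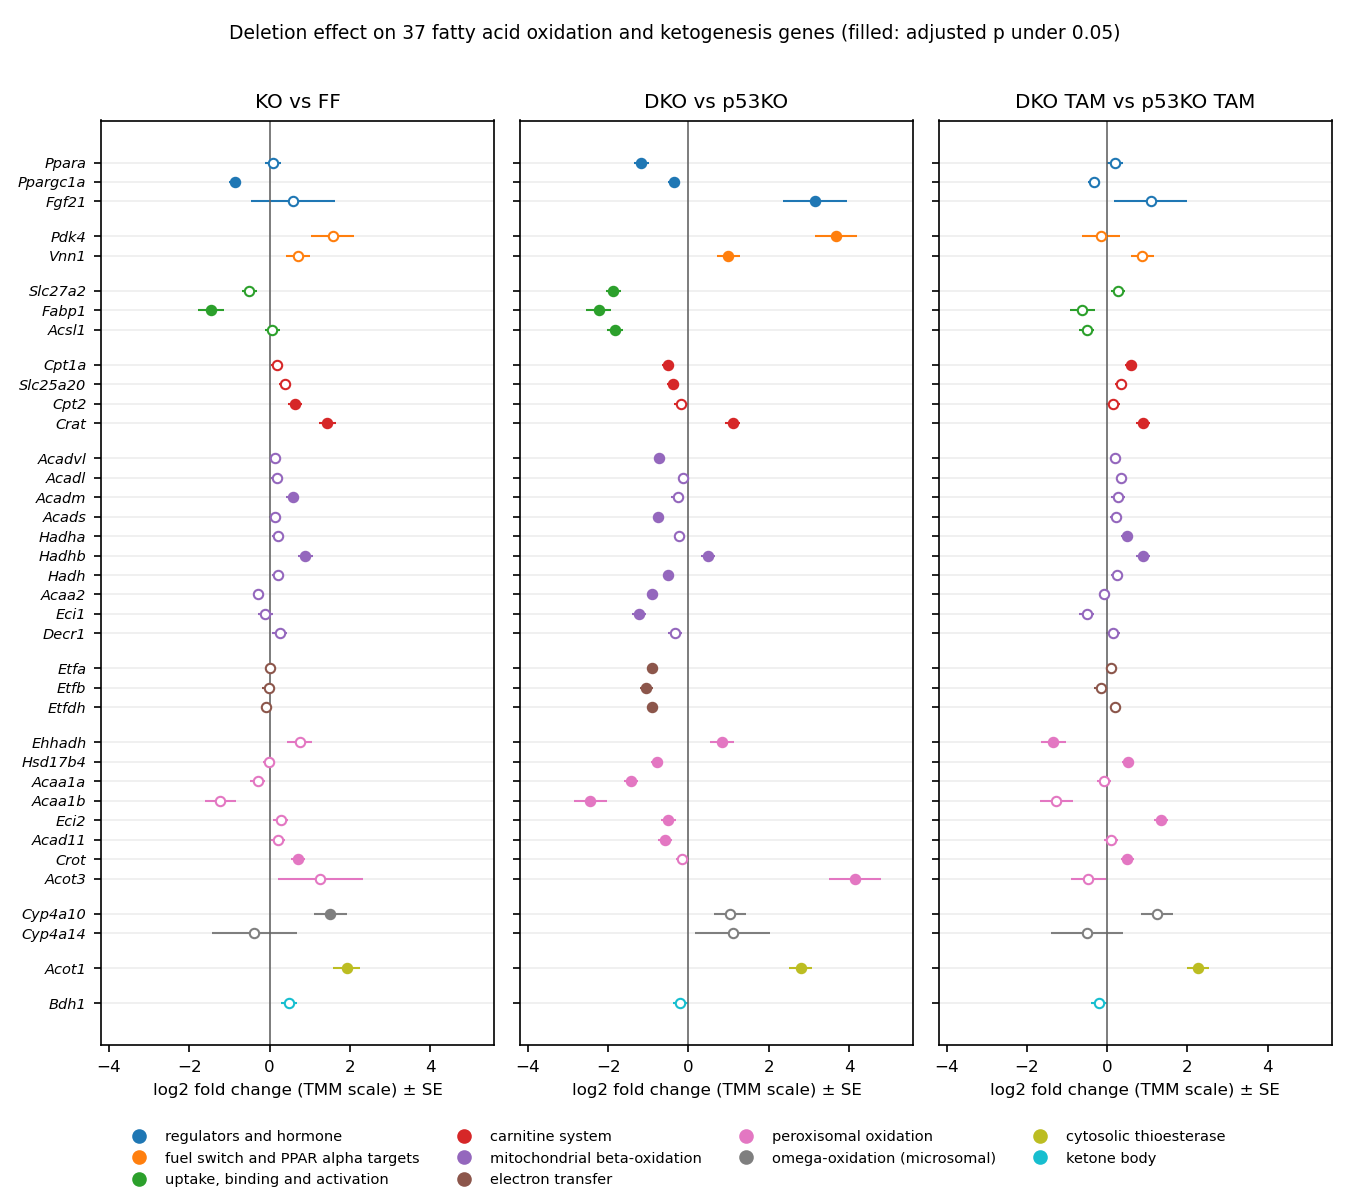
Log2 fold change (TMM scale) with its SE for each of the 37 members, grouped by role, in KO against FF, DKO against p53KO and DKO TAM against p53KO TAM livers (2 libraries a group); filled points have an adjusted p under 0.05. Most points lie slightly right of 0 in the first and last panels and left of 0 in DKO livers, and Acot1 lies right in all 3, at 1.92, 2.79 and 2.26.

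**Figure D2:**
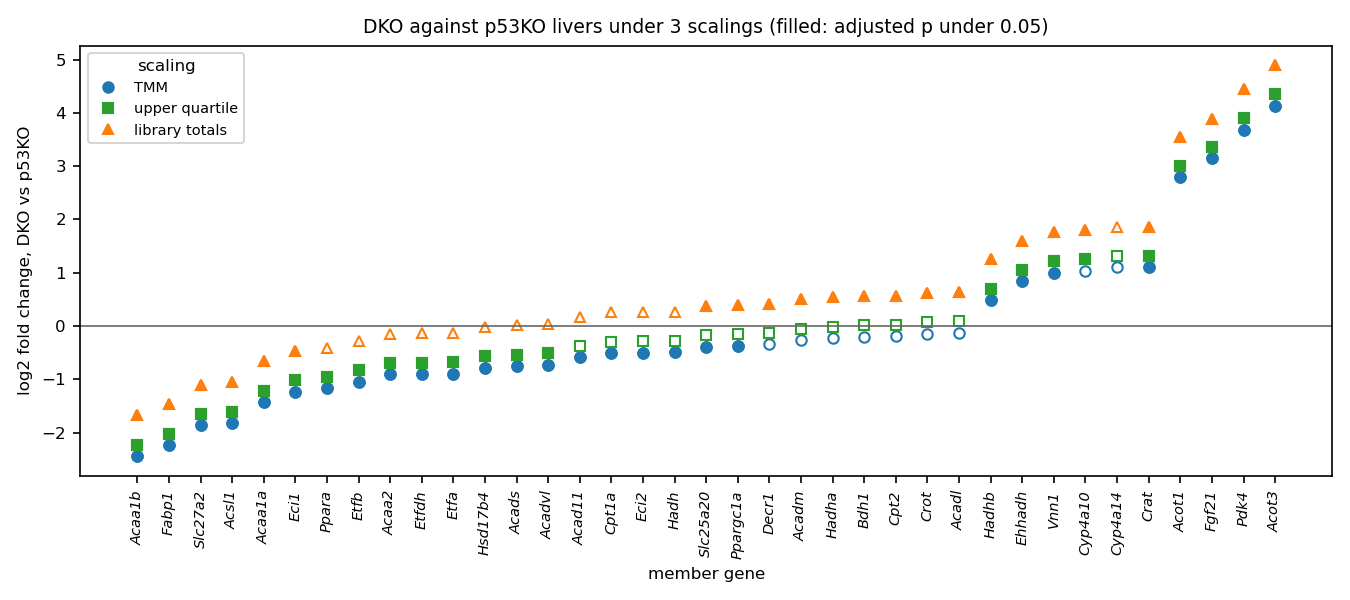
Log2 fold change of DKO against p53KO livers for each member under 3 scalings, with filled symbols for an adjusted p under 0.05 and genes ordered by their TMM value. The order is kept while the level shifts, so the middle of the list, from Acads to Acadl, crosses 0 between TMM and library totals, and both ends stay on their side of 0.

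The regulators did not move together. Ppara, the receptor itself, had 187 and 169 CPM in DKO livers against 354 and 447 CPM in p53KO livers, a fall by 1.17 on the log2 scale (SE 0.20, adjusted p = 0.00015). It had 478 and 375 CPM in KO livers against 369.5 and 437 CPM in FF livers, and 328 and 208 CPM in DKO TAM livers against 234 and 236 CPM in p53KO TAM livers, and the groups overlapped in both pairs. With library totals alone the fall in DKO livers was -0.41 and no longer called (adjusted p = 0.08). Ppargc1a, the coactivator PGC-1α, had 22.5 and 23.0 CPM in KO livers against 42.4 and 40.6 CPM in FF livers (log2 fold change -0.86 ± 0.16 (SE), adjusted p = 0.0015). Its values in DKO livers were 61.1 and 60.8 CPM, against 77.9 and 79.5 CPM in p53KO livers (-0.37 ± 0.14, adjusted p = 0.034). That call turned round with library totals alone (0.40) and was lost without any 1 of the 4 libraries compared (from -0.39 to -0.37). It was also lost with upper quartile scaling (-0.15, adjusted p = 0.37), DESeq2 (-0.35, adjusted p = 0.11) and the replicate number as a block (-0.37, adjusted p = 0.056). In DKO TAM livers Ppargc1a had 26.2 and 34.9 CPM, against 41.8 and 34.8 CPM in p53KO TAM livers, which was not called (-0.34 ± 0.15, adjusted p = 0.13). Fgf21 was at the edge of detection, with 18 and 25 counts in the DKO libraries and 2 and 0 counts in the p53KO libraries. Over the groups this is a ratio of 9.63, with a 95% exact counting interval from 2.51 to 82.1 (fitted log2 fold change 3.16 ± 0.80, adjusted p = 0.0034). The other 8 libraries held 1 to 7 counts of Fgf21.

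Pdk4, a kinase that turns off pyruvate dehydrogenase and so spares glucose, had 101 and 137 CPM in DKO livers against 10.6 and 7.71 CPM in p53KO livers, 12.8-fold (log2 fold change 3.68 ± 0.52, adjusted p = 0.00076). It had 32.7 and 30.5 CPM in KO livers against 8.13 and 12.8 CPM in FF livers; these groups did not overlap, but the difference was not called (1.57 ± 0.54, adjusted p = 0.10). It was called there by DESeq2 (1.59, adjusted p = 0.034) and limma-voom (1.59, adjusted p = 0.036). In DKO TAM livers Pdk4 had 13.6 and 27.9 CPM against 31.9 and 12.5 CPM in p53KO TAM livers, overlapping groups with a wide spread (-0.15 ± 0.48). The effect in DKO exceeded that in DKO TAM livers by 3.84 ± 0.71 (adjusted p = 0.0072), and its excess over that in KO livers did not pass (2.11 ± 0.77, adjusted p = 0.092). Vnn1, a pantetheinase known as a PPARα target, was higher in DKO than p53KO livers (0.998 ± 0.29, adjusted p = 0.016), a call that was lost without p53KO replicate 1 (adjusted p = 0.13), p53KO replicate 2 (0.066) or DKO replicate 3 (0.09). Its log2 fold changes of 0.71 in KO and 0.87 in DKO TAM livers were not called, although the groups did not overlap in either pair. That in DKO TAM livers was called by DESeq2 (0.86, adjusted p = 0.00815) and limma-voom (0.82, adjusted p = 0.037). That in KO livers was called in 1 alternative, with only the libraries compared (0.72, adjusted p = 0.041).

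The 3 genes of uptake, binding and activation fell together in DKO livers and on every scale. Over all genes, 25.7% were called lower in DKO livers on the TMM scale. Fabp1 had 232 and 242 CPM in DKO livers against 1369 and 866 CPM in p53KO livers, 4.72-fold lower (log2 fold change -2.24 ± 0.32, adjusted p = 0.00032). Slc27a2 had 550.2 and 616 CPM in DKO livers against 2305 and 1950.2 CPM in p53KO livers, 3.65-fold lower (-1.87 ± 0.19, adjusted p = 4.6e-07). Acsl1, the main long-chain acyl-CoA synthetase of liver, had 552 and 401 CPM in DKO livers against 1742 and 1636 CPM in p53KO livers, 3.54-fold lower (-1.83 ± 0.20, adjusted p = 1.6e-06). None of these groups overlapped. With p53 present Fabp1 had 415 and 260.2 CPM in KO livers against 1138 and 721 CPM in FF livers (-1.46 ± 0.32, adjusted p = 0.014). Leaving out FF replicate 1 (-1.09) or KO replicate 2 (-1.18) ended that call, as did a fit of only the libraries compared (-1.45, adjusted p = 0.0555). Slc27a2 had 1154 and 1414 CPM in KO livers against 1674 and 1970.5 CPM in FF livers (-0.51 ± 0.18, adjusted p = 0.071), and Acsl1 had 1339 and 1411 CPM in KO livers against 1094 and 1526 CPM in FF livers (0.07 ± 0.19). The fall in DKO livers was thus larger than in KO livers for Slc27a2 (difference -1.36 ± 0.26, adjusted p = 0.0014) and Acsl1 (-1.89 ± 0.28, adjusted p = 0.00024), while for Fabp1 the difference did not pass (-0.78 ± 0.44, adjusted p = 0.24). After tamoxifen the 3 genes had no call. Fabp1 had 268 and 185 CPM in DKO TAM livers against 339.7 and 360.0 CPM in p53KO TAM livers. Slc27a2 had 1907 and 1328 CPM in DKO TAM livers against 1269 and 1411 CPM in p53KO TAM livers, and Acsl1 had 774 and 546 CPM in DKO TAM livers against 929 and 957 CPM in p53KO TAM livers. The Fabp1 and Acsl1 groups did not overlap and the Slc27a2 groups did. Gm26697, annotated on the other strand, covers 18.2% of the counted exon bases of Slc27a2, so reads of the pair cannot be told apart without strand.

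In the carnitine system, Crat was the member that rose in every comparison. Crat had 26.9 and 28.4 CPM in KO livers against 7.67 and 12.4 CPM in FF livers (log2 fold change 1.43 ± 0.21, adjusted p = 0.00024). It had 30.9 and 36.8 CPM in DKO livers against 17.6 and 13.7 CPM in p53KO livers (1.10 ± 0.19, adjusted p = 0.00013). It had 56.4 and 56.3 CPM in DKO TAM livers against 33.0 and 27.3 CPM in p53KO TAM livers (0.89 ± 0.17, adjusted p = 0.002). No pair of groups overlapped, and none of the alternatives run ended a Crat call. Cpt1a, the carnitine palmitoyltransferase that controls entry into mitochondria, did not go one way. It had 512 and 509 CPM in KO livers against 413 and 491 CPM in FF livers, which was not called (0.18 ± 0.14, adjusted p = 0.46). It had 388 and 433 CPM in DKO livers against 605 and 563 CPM in p53KO livers (-0.51 ± 0.14, adjusted p = 0.0069), and 594 and 477 CPM in DKO TAM livers against 367 and 345 CPM in p53KO TAM livers (0.59 ± 0.14, adjusted p = 0.0088). The call in DKO livers leans on the libraries and the scale, and that in DKO TAM livers on the libraries. The fall was lost without DKO replicate 2 (-0.44) or with upper quartile scaling (-0.29, adjusted p = 0.091), and turned to 0.26 with library totals alone. The rise was lost without DKO TAM replicate 1 (0.42), p53KO TAM replicate 1 (0.64) or p53KO TAM replicate 2 (0.55). The difference between the 2 effects was -1.10 ± 0.20 (adjusted p = 0.00085) and was kept in every alternative run. Cpt2, the partner enzyme on the inner membrane, rose in KO livers (0.64 ± 0.17, adjusted p = 0.021), but not once FF replicate 1 (0.41, adjusted p = 0.22) or KO replicate 2 (0.43, adjusted p = 0.21) was left out. Slc25a20, the translocase between Cpt1a and Cpt2, fell in DKO livers (-0.39 ± 0.14, adjusted p = 0.031). That call was lost when p53KO replicate 2 (-0.33), DKO replicate 2 (-0.39) or DKO replicate 3 (-0.40) was left out. It was also lost with upper quartile scaling (-0.17, adjusted p = 0.32) and with DESeq2 (-0.36, adjusted p = 0.078). The fold change turned to 0.38 with library totals alone.

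Of the 10 members of mitochondrial β-oxidation, 2 were higher in KO livers, 1 was higher and 5 lower in DKO livers, and 2 were higher in DKO TAM livers. Counted in either direction, these lie near the 14.8%, 51.4% and 18.7% of all genes called. The log2 fold changes of the 8 not called were between -0.30 and 0.25 in KO livers, and those of the 8 not called were between -0.51 and 0.35 in DKO TAM livers. Acadm, the medium-chain dehydrogenase, had 302 and 385 CPM in KO livers against 217 and 244 CPM in FF livers (0.57 ± 0.17, adjusted p = 0.028). Without FF replicate 1, FF replicate 2 or KO replicate 2 that call was lost (adjusted p = 0.18, 0.074 and 0.27). Acadm had 229.6 and 235 CPM in DKO livers against 326 and 232 CPM in p53KO livers, and 365 and 296 CPM in DKO TAM livers against 279 and 269.7 CPM in p53KO TAM livers, with no call in either pair. The 5 that fell in DKO livers were Eci1, an enoyl-CoA isomerase, the thiolase Acaa2 (-0.91), the dehydrogenases Acads (-0.75) and Acadvl (-0.73), and Hadh, the short-chain hydroxyacyl dehydrogenase (-0.50). Eci1 had 24.8 and 24.3 CPM in DKO livers against 57.8 and 57.6 CPM in p53KO livers (-1.23 ± 0.18, adjusted p = 3.4e-05). It had 49.9 and 44.4 CPM in KO livers against 51.5 and 50.6 CPM in FF livers, and 38.8 and 23.0 CPM in DKO TAM livers against 41.5 and 47.3 CPM in p53KO TAM livers, neither called. With library totals alone Acadvl (0.036), Acads (0.012) and Hadh (0.27) turned to the other side of 0 in DKO livers, and Acaa2 stood at -0.14 with no call. The Hadh call was also lost with upper quartile scaling (-0.28, adjusted p = 0.12), without p53KO replicate 1 (-0.32) and without DKO replicate 3 (-0.48). Acadvl shares 24.0% of its 50-base windows with Dvl2, which overlaps it on the other strand, so its reads and those of Dvl2 cannot be told apart with counting that ignores strand.

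Hadha and Hadhb, the α and β subunits of the same complex, are transcribed away from each other from the stretch shown above and did not move alike. Hadhb, named after its values were seen, had 90.5 and 109 CPM in KO livers against 47.6 and 59.5 CPM in FF livers (log2 fold change 0.89 ± 0.18, adjusted p = 0.0031). It had 83.4 and 79.7 CPM in DKO livers against 53.6 and 63.0 CPM in p53KO livers (0.49 ± 0.18, adjusted p = 0.029). It had 116 and 79.4 CPM in DKO TAM livers against 57.0 and 48.2 CPM in p53KO TAM livers (0.89 ± 0.18, adjusted p = 0.0025). The Hadhb groups did not overlap in any of the 3 pairs, and the call in DKO livers was lost without p53KO replicate 1 (0.36, adjusted p = 0.21), DKO replicate 2 (0.45, adjusted p = 0.11) or DKO replicate 3 (0.51, adjusted p = 0.072). Hadha had 566 and 557 CPM in KO livers against 464 and 508 CPM in FF livers (0.21 ± 0.14), and 468 and 483 CPM in DKO livers against 603 and 508 CPM in p53KO livers (-0.23 ± 0.14), neither called. In DKO TAM livers Hadha had 722 and 619 CPM against 457 and 499.5 CPM in p53KO TAM livers (0.49 ± 0.14, adjusted p = 0.02), a call lost without DKO TAM replicate 1 (0.37, adjusted p = 0.13), p53KO TAM replicate 1 (0.43, adjusted p = 0.16) or p53KO TAM replicate 2 (0.55, adjusted p = 0.064). Within a library, where no scaling enters, the ratio of Hadhb to Hadha counts was 0.160 and 0.196 in KO livers against 0.103 and 0.117 in FF livers, 0.178 and 0.165 in DKO livers against 0.0888 and 0.124 in p53KO livers, and 0.160 and 0.128 in DKO TAM livers against 0.125 and 0.0965 in p53KO TAM livers. The ratio was higher in both deleted libraries of each pair, narrowly so after tamoxifen; with 2 libraries a group it carries no test. Hadhb shares 62.4% of its 50-base windows with other annotated transcripts, chiefly the pseudogenes Gm13910 and Gm9108, so its level is uncertain. Reads of such copies may be dropped or assigned to either.

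**Figure D3:**
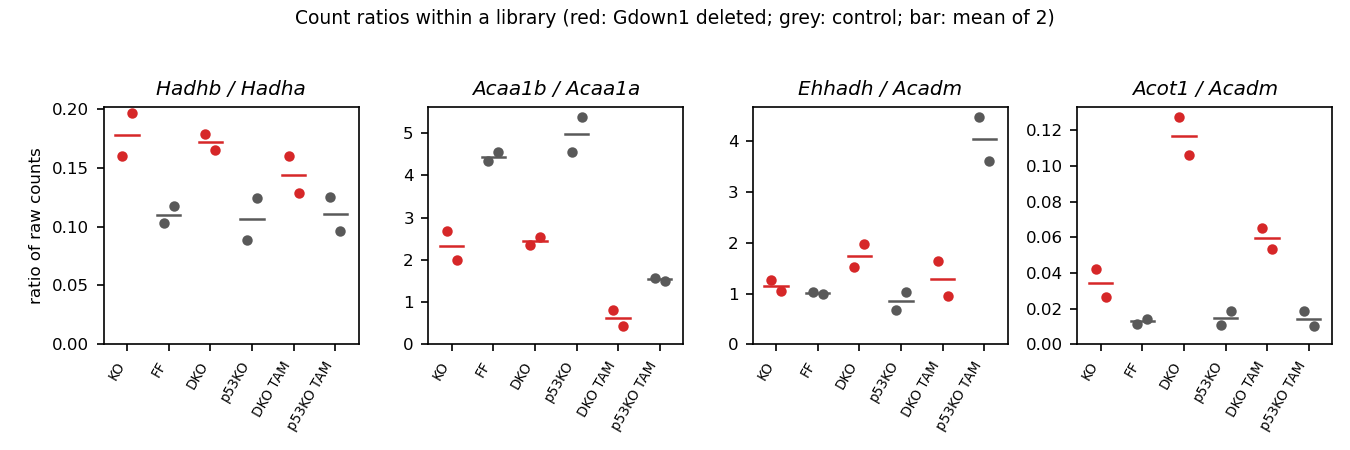
Ratio of raw counts of 2 members within each library (points) with the mean of the 2 libraries (bars), in deleted livers (red) and their controls (grey); the pairs were picked after values were seen. The Hadhb to Hadha and Acot1 to Acadm ratios are higher, and the Acaa1b to Acaa1a ratio lower, in both deleted libraries of each pair, whereas Ehhadh to Acadm peaks in p53KO TAM livers at 4.49 and 3.61.

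All 3 genes of electron transfer, Etfa and Etfb (the flavoprotein subunits) and Etfdh (its dehydrogenase), fell in DKO livers by 0.90, 1.05 and 0.90 on the log2 scale, with adjusted p of 1.2e-05, 5.3e-05 and 1.6e-05. Over all genes, 25.7% were called lower in DKO livers. Etfb had 96.4 and 103 CPM in DKO livers against 247 and 165 CPM in p53KO livers. None of the 3 was called in KO livers, where their log2 fold changes were between -0.10 and 0.00, or in DKO TAM livers, where they were between -0.16 and 0.20. Etfb had 173 and 208 CPM in KO livers against 180.1 and 208 CPM in FF livers, and 144 and 155 CPM in DKO TAM livers against 166 and 169 CPM in p53KO TAM livers. The effect in DKO was lower than in KO livers for all 3 (differences of -0.90, -1.02 and -0.81, adjusted p = 0.0015, 0.0046 and 0.0037). With library totals alone the 3 falls in DKO livers shrank to -0.14, -0.28 and -0.14, with no call. Etfb shares 67.3% of its 50-base windows with Gm45233, an annotated gene on the same strand, and is uncertain.

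The peroxisomal members went both ways. Of the 8, 2 rose and 5 fell in DKO livers, beside 25.7% and 25.7% of all genes. In DKO TAM livers 3 rose and 1 fell, beside 8.61% and 10.1% of all genes. Crot alone rose in KO livers (0.70 ± 0.17, adjusted p = 0.011) and none fell, beside 6.92% and 7.88% of all genes. Leaving out FF replicate 1 (adjusted p = 0.062), FF replicate 2 (0.073) or KO replicate 2 (0.48, adjusted p = 0.15) ended the Crot call. Acaa1b, a peroxisomal thiolase, had 41.1 and 40.4 CPM in DKO livers against 215 and 228 CPM in p53KO livers, 5.44-fold lower (-2.44 ± 0.41, adjusted p = 0.0017). It had 87.7 and 69.7 CPM in KO livers against 173 and 195 CPM in FF livers (-1.23 ± 0.40, adjusted p = 0.087), and 46.0 and 15.4 CPM in DKO TAM livers against 78.3 and 70.5 CPM in p53KO TAM livers (-1.27 ± 0.41, adjusted p = 0.076). Neither was called, although the groups did not overlap. DESeq2 called both (adjusted p = 0.047 and 0.035), as did limma-voom (0.014 and 0.0073). Its near twin Acaa1a had 17.4 and 15.8 CPM in DKO livers against 47.1 and 42.4 CPM in p53KO livers (-1.43 ± 0.19, adjusted p = 8.1e-06). In KO livers Acaa1a had 32.7 and 35.0 CPM against 40.0 and 42.8 CPM in FF livers, and in DKO TAM livers 56.8 and 35.3 CPM against 49.8 and 47.1 CPM in p53KO TAM livers, with no call. The count ratio of Acaa1b to Acaa1a was 2.68 and 1.99 in KO livers against 4.33 and 4.56 in FF livers. It was 2.35 and 2.55 in DKO livers against 4.57 and 5.37 in p53KO livers, and 0.810 and 0.436 in DKO TAM livers against 1.57 and 1.496 in p53KO TAM livers. The ratio was lower in both deleted libraries of all 3 pairs. These thiolases share windows with each other (35.1% of those of Acaa1a and 46.2% of those of Acaa1b are found in another transcript), so the counting could split reads between them.

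Ehhadh, the bifunctional enzyme of the classical peroxisomal pathway, went opposite ways with the experiment. It had 348 and 465 CPM in DKO livers against 217 and 237 CPM in p53KO livers (0.84 ± 0.30, adjusted p = 0.044), and 598 and 279 CPM in DKO TAM livers against 1252 and 973 CPM in p53KO TAM livers (-1.34 ± 0.31, adjusted p = 0.015). In KO livers it had 380.3 and 402 CPM, against 222 and 243 CPM in FF livers, a separation that was not called (0.75 ± 0.31, adjusted p = 0.14). It was called in 4 of 12 alternatives, among them DESeq2 (0.75, adjusted p = 0.026) and edgeR with only the libraries compared (0.76, adjusted p = 0.0026). The difference of the effect in DKO from that in DKO TAM livers was 2.18 ± 0.43 (adjusted p = 0.0053), with no loss in any alternative run. Both single calls were weaker. The rise was lost without p53KO replicate 1 (0.77), p53KO replicate 2 (0.89) or DKO replicate 3 (0.61), and with no expression filter (0.83, adjusted p = 0.12). The fall was lost without p53KO TAM replicate 1 (-1.15) or with only the 4 libraries compared (-1.34, adjusted p = 0.13). With no expression filter the fall was lost as well (-1.33, adjusted p = 0.053). Eci2, a peroxisomal isomerase, had 243 and 215 CPM in DKO TAM livers against 94.9 and 86.1 CPM in p53KO TAM livers, 2.53-fold higher (1.34 ± 0.19, adjusted p = 0.00019). It had 133 and 136 CPM in DKO livers against 189 and 192 CPM in p53KO livers (-0.50 ± 0.18, adjusted p = 0.031), and 154 and 152 CPM in KO livers against 92.3 and 161 CPM in FF livers, where the groups overlapped. The fall in DKO livers was lost without any 1 of the 4 libraries compared (from -0.52 to -0.49) and with upper quartile scaling (-0.28, adjusted p = 0.195). It turned to 0.27 with library totals alone. Gm16984 covers 11.7% of the exon bases of Eci2 on the other strand. Acot3 had 24.9 and 18.9 CPM in DKO livers against 1.88 and 0.429 CPM in p53KO livers, 17.6-fold higher (4.14 ± 0.65, adjusted p = 0.00055). It had 17.3 and 7.63 CPM in DKO TAM livers against 17.9 and 16.9 CPM in p53KO TAM livers, and 3.55 and 0.576 CPM in KO livers against 0.903 and 0.863 CPM in FF livers, with no call in either pair. The p53KO libraries held 11 and 2 counts of Acot3, so the fold carries a large counting error. Hsd17b4, the other bifunctional enzyme, fell in DKO livers (-0.79 ± 0.15, adjusted p = 0.00029) and rose in DKO TAM livers (0.51 ± 0.15, adjusted p = 0.022). The rise of Hsd17b4 was lost without DKO TAM replicate 1 (0.34, adjusted p = 0.18) or either p53KO TAM library (adjusted p = 0.099 and 0.13).

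Acot1, which frees fatty acids from acyl-CoA in the cytosol, had the largest fold change of the members called in KO and in DKO TAM livers. Acot1 had 12.7 and 10.2 CPM in KO livers against 2.48 and 3.45 CPM in FF livers, 3.78-fold higher (log2 fold change 1.92 ± 0.33, adjusted p = 0.001). It had 29.2 and 25.1 CPM in DKO livers against 3.58 and 4.29 CPM in p53KO livers, 6.93-fold higher (2.79 ± 0.28, adjusted p = 5.5e-07). It had 23.7 and 15.9 CPM in DKO TAM livers against 5.24 and 2.71 CPM in p53KO TAM livers, 4.79-fold higher (2.26 ± 0.28, adjusted p = 4e-05). No pair of groups overlapped and no alternative run ended a call, on any scale. The effect in DKO was above that in KO livers by 0.87 ± 0.47 (adjusted p = 0.20) and above that in DKO TAM livers by 0.53 ± 0.42 (adjusted p = 0.38), differences that did not pass the test. Acot1 shares 33.6% of its 50-base windows with Acot2, Acot5 and Acot3, neighbours of the same family, so part of its counts may be theirs. Of the ω-hydroxylases, Cyp4a10 had 403 and 213 CPM in KO livers against 110.4 and 106 CPM in FF livers (1.51 ± 0.41, adjusted p = 0.049). It had 294 and 284 CPM in DKO livers against 165 and 117 CPM in p53KO livers, and 1251 and 596 CPM in DKO TAM livers against 425 and 356 CPM in p53KO TAM livers. The groups did not overlap in any pair, but the log2 fold changes of 1.04 ± 0.40 and 1.24 ± 0.40 were not called (adjusted p = 0.065 and 0.072), although DESeq2 called both (adjusted p = 0.03 and 0.028). The call in KO livers was lost without KO replicate 1 (0.98), FF replicate 1 (1.54) or FF replicate 2 (1.48). It was also lost with no expression filter (1.51, adjusted p = 0.10) and with only the libraries compared (1.52, adjusted p = 0.064). Cyp4a10 shares 30.5% of its 50-base windows with Cyp4a32 and Cyp4a31. Cyp4a14 had 44.5 and 5.38 CPM in KO livers against 56.4 and 11.4 CPM in FF livers, and 453 and 224 CPM in DKO TAM livers against 591 and 365 CPM in p53KO TAM livers, overlapping groups with no call. It had 182 and 131 CPM in DKO livers against 84.1 and 61.7 CPM in p53KO livers, groups that did not overlap (1.10 ± 0.93, adjusted p = 0.37). With only the 4 libraries of that pair in the fit it was called (1.14, adjusted p = 0.0011). Bdh1, the mitochondrial enzyme that interconverts the 2 main ketone bodies, had no call: 439 and 363 CPM in KO livers against 292 and 282 CPM in FF livers (0.48 ± 0.19, adjusted p = 0.11), 257 and 270.2 CPM in DKO livers against 294 and 312 CPM in p53KO livers (-0.20 ± 0.19), and 354 and 209 CPM in DKO TAM livers against 302 and 346 CPM in p53KO TAM livers (-0.20 ± 0.19).

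**Figure D4:**
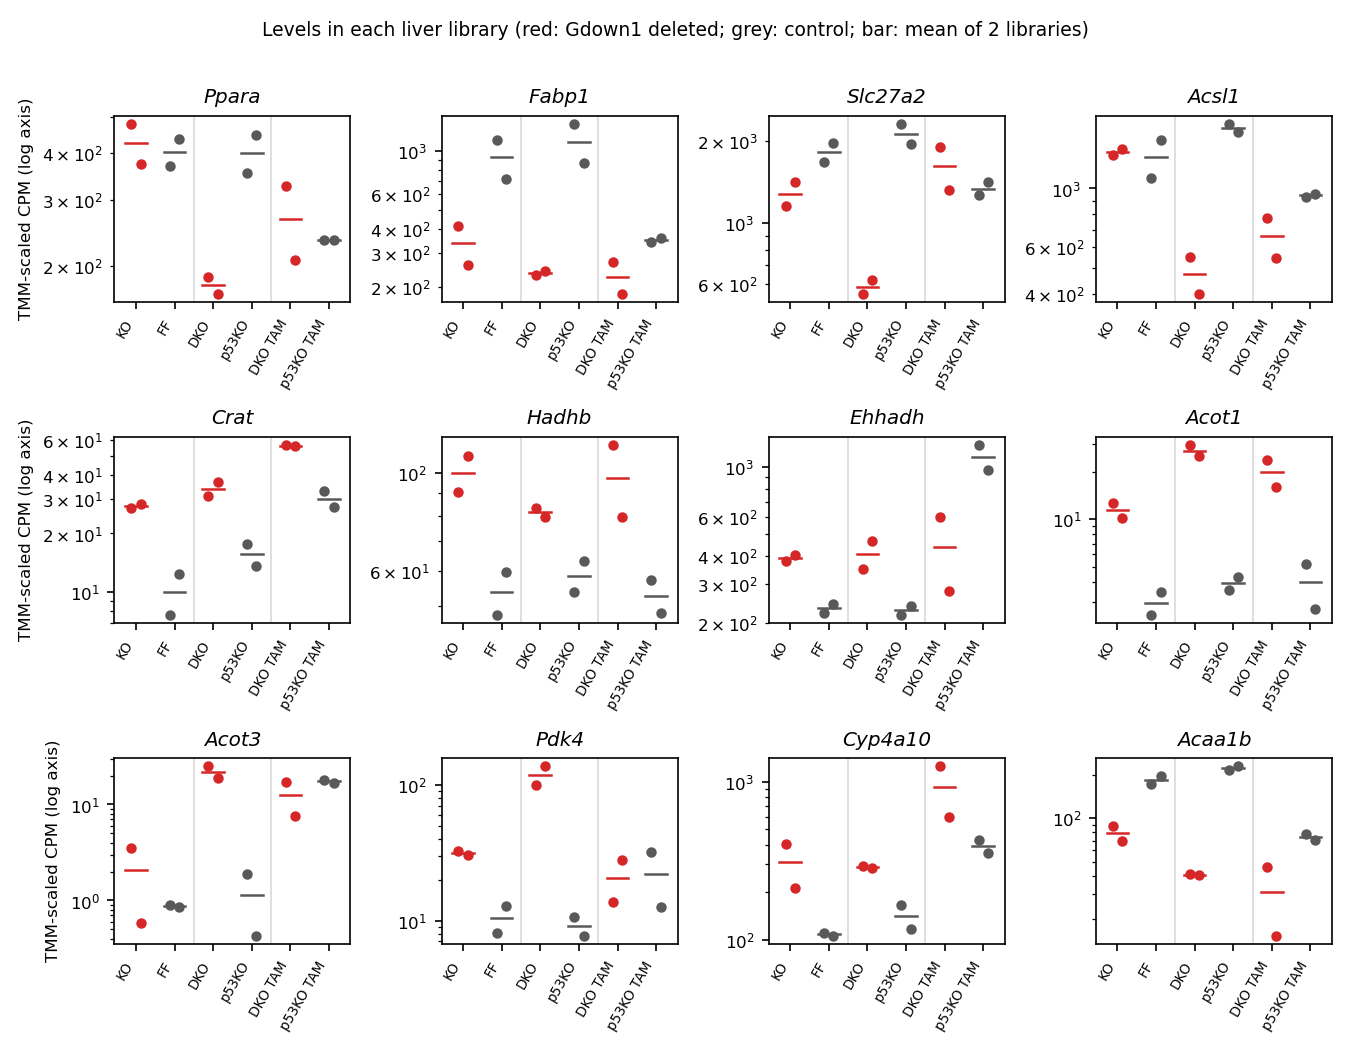
Level (TMM-scaled CPM, log axis) of 12 members in each library (points) with the mean of 2 libraries (bars), deleted livers in red beside their controls in grey. Acot1, Crat and Hadhb are higher in both deleted libraries of each pair, Fabp1, Slc27a2 and Acsl1 are lowest or close to it in DKO livers, and Ehhadh and Acot3 already stand high in p53KO TAM livers.

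Whether deletion acts differently with and without p53 was asked by subtracting the KO effect from the DKO effect, in which age and experiment differ too and cannot be told apart from p53. The effect was lower in DKO for 20 of the 37 members and higher for 0, with a median difference of -0.76 beside -0.03 over all genes, of which 22.7% were called, 9.76% higher and 12.9% lower. Of the members whose effect was lower, Acsl1 (-1.89), Slc27a2 (-1.36) and Ppara (-1.25) differed most. Upper quartile scaling left 12 calls, which include 11 of the 20 (21.4% of all genes were called), and library totals alone left 5, which include 2 of the 20 (29.7% of all genes), so most of these differences rest on the scale. The count of 0 higher is that of edgeR on the TMM scale; at an unadjusted p under 0.05 there were 2, Ppargc1a (0.50) and Pdk4 (2.11). DESeq2, limma-voom and edgeR with only the libraries compared each called 1, Pdk4. Library totals alone called 3, Ppargc1a, Pdk4 and Acot1, and upper quartile scaling called 1, Ppargc1a, as the fit without KO replicate 1 did for Acot3. Against DKO TAM livers the time since deletion, tamoxifen and the form of Cre differ, and age may differ too. There the effect in DKO was lower for 18 members and higher for 3. The median was -0.71 beside -0.03, with 27.6% of all genes called, 14.2% lower and 13.4% higher. The 3 higher were Acot3 (4.61 ± 0.81, adjusted p = 0.0029), Pdk4 and Ehhadh, and the lower ones were led by Slc27a2 (-2.14 ± 0.26, adjusted p = 2.8e-05) and Eci2 (-1.84 ± 0.26, adjusted p = 0.00015). With library totals alone 13 of these 21 calls were kept, with 29.5% of all genes called.

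Control livers were also compared with each other. In p53KO against FF livers, 1 of the 37 members was called, and 0.862% of all genes, 0.592% higher. It was Ppargc1a, with 77.9 and 79.5 CPM in p53KO livers against 42.4 and 40.6 CPM in FF livers (0.92 ± 0.15, adjusted p = 0.0056), and it was lost without FF replicate 1 (0.96, adjusted p = 0.053). These groups differ in age and experiment as well. In p53KO TAM against p53KO livers, tamoxifen, the experiment and any difference in age cannot be told apart. There 4 members were higher and 11 lower, with 15.8% of all genes called, 7.55% higher and 8.22% lower. The 4 were Acot3 (14.0-fold), Ehhadh (4.90-fold, adjusted p = 0.0014), Cyp4a10 (2.77-fold) and Crat (1.93-fold), and the 11 included Fabp1 (3.20-fold lower), Acaa1b (2.97-fold), Eci2 (2.10-fold) and Ppargc1a (2.05-fold). Leaving out any 1 of the 4 libraries compared ended the calls of Cyp4a10 (adjusted p from 0.11 to 0.21) and Acaa1b (0.13 to 0.16). Leaving out p53KO TAM replicate 1 also ended those of Fabp1 (adjusted p = 0.063) and Crat (0.062). The comparison of DKO TAM with p53KO TAM livers shares these controls. In those controls Ehhadh stood at 1252 and 973 CPM, against 217 and 237 CPM in p53KO livers, and Acot3 at 17.9 and 16.9 CPM, against 1.88 and 0.429 CPM in p53KO livers. Without p53KO TAM replicate 1 the number of members called in that comparison of controls was 7.

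The other genes of the pathway were also listed with earlier results of these data known. Of the 92 found among the counted genes, 89 were tested. In KO against FF livers 8 were called higher and 16 lower (median -0.06), beside 6.92% and 7.88% of all genes (median 0.02). In DKO against p53KO livers 15 were higher and 49 lower (median -0.62), beside 25.7% and 25.7% of all genes (0.01). In DKO TAM against p53KO TAM livers 14 were higher and 21 lower (median -0.09), beside 8.61% and 10.1% of all genes (0.01). Acot2, the mitochondrial relative and neighbour of Acot1, was higher in all 3: 13.7 and 8.64 CPM in KO livers against 2.71 and 2.24 CPM in FF livers, 69.7 and 85.3 CPM in DKO livers against 5.80 and 6.21 CPM in p53KO livers, and 70.8 and 56.8 CPM in DKO TAM livers against 10.3 and 5.21 CPM in p53KO TAM livers. Its log2 fold changes were 2.19 ± 0.37, 3.69 ± 0.26 and 2.98 ± 0.25, with adjusted p of 0.0012, 4.4e-08 and 1.8e-06. Slc16a1, the transporter MCT1 that carries ketone bodies and lactate, was higher in all 3 as well, by 1.40, 2.04 and 0.82. The other genes that led the rises were Acat1, a mitochondrial thiolase (0.70 in KO livers), Cd36, a fatty acid receptor (1.38 in DKO livers), and Aldh3a2, a fatty aldehyde dehydrogenase (1.75 in DKO TAM livers). Acacb, the acetyl-CoA carboxylase whose product malonyl-CoA inhibits Cpt1a, had 19.5 and 14.2 CPM in KO livers against 117 and 106 CPM in FF livers, 17.0 and 16.0 CPM in DKO livers against 99.3 and 122 CPM in p53KO livers, and 20.9 and 19.0 CPM in DKO TAM livers against 69.7 and 67.8 CPM in p53KO TAM livers. It was 2.72, 2.74 and 1.78 lower on the log2 scale, with no overlap in any pair. Pccb, a subunit of propionyl-CoA carboxylase, fell by 1.28, 2.22 and 1.41. The falls were also led by Phyh, the phytanoyl-CoA hydroxylase of peroxisomes (-1.17 in KO livers), Pdk1, another pyruvate dehydrogenase kinase (-2.74 in DKO livers), and Cyp4f14, an ω-hydroxylase (-2.23 in DKO TAM livers).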

How the data were processed

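Libraries came from total RNA of whole liver with the SMARTer Stranded Total RNA kit, per the labels' protocols. The submitters' processing notes name CASAVA 1.82, HISAT2 and featureCounts and the build mm10 (GRCm38). The deposited values are raw counts of reads per gene, not normalized by the authors. In 4 of the 12 files, those of the 7-week libraries, the header gives featureCounts 1.6.4 without a strand or multiple-mapping option, and 8 files carry no such line. Overlapping or near-identical genes can therefore share or lose reads.

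The 37 members, their roles and the other gene lists were chosen with earlier results of these data known. The main test was the robust quasi-likelihood F test of edgeR 4.0.16 (R 4.3.3), after filterByExpr (minimum count 10) and TMM scaling, in a single model with a mean per group for all 12 libraries. It left 6 residual degrees of freedom, with a biological coefficient of variation of 0.124. P-values were adjusted by Benjamini-Hochberg over 13693 genes and called under 0.05. The SE was derived from the fold change and F. CPM are TMM-scaled. The method was tested on simulated data. The DKO libraries, 2 and 3 by title, are 1 and 2 by description. Groups of 2 libraries allow no exact test under 0.05 on single values, so none was run.

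Values per library are given for members called with an absolute log2 fold change of at least 1 in any of the 3 deletion comparisons, for Ppara, Ppargc1a, Cpt1a, Acadm, Hadha, Ehhadh and Bdh1, and for Hadhb, Cyp4a14 and the count ratios, which were picked after values were seen. Of the other pathway genes, up to 3 per direction and comparison with the smallest p were named. Counting intervals and the floor of 3 counts cover counting error only. Promoters came from RefSeq (GRCm38.p6), and windows of 50 bases from annotated mouse transcripts were compared between genes. The settings varied were the scaling (RLE, upper quartile, library totals), the expression filter, the tool (DESeq2 1.42.0, limma-voom with limma 3.58.1), the libraries in the fit, a replicate block and each library in turn.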

Additional observations from a re-analysis of the deposited data

Results flagged for a closer look

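The deletion effect differed between experiments for 41 pairs of member and contrast, by a test of the difference itself (edgeR quasi-likelihood F test, adjusted p under 0.05). Values are differences of log2 fold changes on the TMM scale, with the effect in DKO against p53KO livers first.

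Minus the effect in KO against FF livers, 20 members differed, all lower in DKO. In the regulator, uptake and activation roles these were Ppara (-1.25), Slc27a2 (-1.36) and Acsl1 (-1.89). In the carnitine system they were Cpt1a (-0.68), Slc25a20 (-0.76) and Cpt2 (-0.83), and in mitochondrial β-oxidation Acadvl (-0.87), Acadm (-0.84), Acads (-0.88), Hadh (-0.71), Acaa2 (-0.61) and Eci1 (-1.12). The genes of electron transfer gave Etfa (-0.90), Etfb (-1.02) and Etfdh (-0.81), and the peroxisomal genes Hsd17b4 (-0.78), Acaa1a (-1.13), Eci2 (-0.77), Acad11 (-0.80) and Crot (-0.85). Acsl1 and Slc27a2 kept this call in all 16 alternatives; 8 members lost it in 1 alternative, library totals alone, and 10 in 3 or more, up to 11 for Eci2 and 8 for Acad11. Genotype, age and experiment cannot be told apart in this contrast.

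Minus the effect in DKO TAM against p53KO TAM livers, 21 differed. The 3 higher in DKO were Pdk4 (3.84), Ehhadh (2.18) and Acot3 (4.61). The lower ones in the regulator, uptake and activation roles were Ppara (-1.36), Slc27a2 (-2.14), Fabp1 (-1.61) and Acsl1 (-1.31). Of the carnitine system they were Cpt1a (-1.10) and Slc25a20 (-0.72), and of mitochondrial β-oxidation Acadvl (-0.93), Acads (-0.96), Hadha (-0.71), Hadh (-0.75), Acaa2 (-0.84) and Eci1 (-0.72). Electron transfer gave Etfa (-0.99), Etfb (-0.89) and Etfdh (-1.11), and the peroxisomal genes Hsd17b4 (-1.30), Acaa1a (-1.36) and Eci2 (-1.84). Of the 21, 12 kept the call in all 16 alternatives. Eci1 lost it in 14, among them RLE scaling, DESeq2 and limma-voom (adjusted p = 0.056, 0.10 and 0.068), Fabp1 in 8, Hadh in 5, Slc25a20 in 4, Hadha in 3, and Acaa2, Acads, Etfb and Pdk4 in 1 each. Time since deletion, tamoxifen, the form of Cre, experiment and any difference in age cannot be told apart here. Groups of 2 libraries were not examined for outlying libraries.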

How the results depend on the processing

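Library totals alone changed more calls than any other setting in the 3 deletion comparisons and both differences of effects, but not in the comparisons of controls. With it, members called higher numbered 18 in KO against FF, 18 in DKO against p53KO and 23 in DKO TAM against p53KO TAM livers, and members called lower in DKO against p53KO numbered 6; the difference of the DKO and KO effects had 5 calls and that of the DKO and DKO TAM effects 13. Upper quartile scaling left 12 calls in the difference of the DKO and KO effects. In DKO against p53KO livers, the log2 fold changes that turned round with library totals alone were those of Ppargc1a (0.40), Cpt1a (0.26), Slc25a20 (0.38), Cpt2 (0.57), Acadvl (0.036), Acadl (0.64), Acadm (0.50), Acads (0.012), Hadha (0.54), Hadh (0.27), Decr1 (0.42), Eci2 (0.27), Acad11 (0.17), Crot (0.62) and Bdh1 (0.57). Only the assumption of what stays constant differs between these scales, and the counts do not say which holds.

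Members called lower in DKO TAM against p53KO TAM livers numbered 1, and 0 with no expression filter, 2 with DESeq2, 2 with limma-voom and 4 with the replicate number as a block. Members called lower in KO against FF livers numbered 4 with DESeq2. The replicate block added calls of Cyp4a14 in DKO against p53KO livers (1.10, adjusted p = 4.5e-05), in DKO TAM against p53KO TAM livers (-0.54, adjusted p = 0.02) and, as higher in DKO, in the difference of the DKO and KO effects (1.68, adjusted p = 0.00041), and with it the difference of the Pdk4 effects in DKO and DKO TAM livers was not called (3.80, adjusted p = 0.075). It gave 2 calls in p53KO against FF livers, and 10 higher and 19 lower in DKO against p53KO livers. No label pairs libraries by number, and the deviations of same-numbered libraries correlated by 0.11, -0.07 and -0.01 in the 3 deletion comparisons.

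Leaving out each library in turn, members called higher ranged from 3 to 6 and lower from 1 to 2 in KO against FF livers, higher from 5 to 7 and lower from 15 to 18 in DKO against p53KO livers, and higher from 4 to 10 and lower from 0 to 5 in DKO TAM against p53KO TAM livers. Calls ranged from 10 to 20 in the difference of the DKO and KO effects, from 17 to 26 in that of the DKO and DKO TAM effects, from 0 to 2 in p53KO against FF livers and from 7 to 13 in p53KO TAM against p53KO livers. The lone library of a group is then assumed to vary like the others. DKO TAM replicate 1 weighs most after tamoxifen: without it 4 members were higher and 5 lower. Without FF replicate 1, 3 were higher in KO against FF livers, and without KO replicate 2, 4 were. Acot1 and Crat kept their calls in all 3 comparisons under each alternative. Depth limits Fgf21 and Acot3 most, with 0 to 25 and 2 to 294 counts a library, and in groups of 2 libraries a missed call does not show that values did not differ.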
